A study of Mus musculus with 9 samples.

Results

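The 10 genes described here are the Gata factors of blood cells (Gata1, Gata2 and Gata3), the Gata cofactor Zfpm1, the erythroid regulators Klf1 and Gfi1b, the receptors Epor and Tfrc, and the erythroid genes Car1 and Ermap. They were picked by symbol from the 24060 named genes of a count table, and each of the 10 had enough counts to be tested. The members and the gene lists used below were chosen with earlier results of these data known. RNA-seq was carried out on LSKs, Lin-Sca1+Kit+ marrow cells among which stem cells and multipotent progenitors are found. Bone marrow of C57BL/6 control, NHD13 or NHD13/MSI2 donors had been placed in irradiated CD45.1 hosts, the MSI2 transgene was switched on by doxycycline feed for 3 months, and the donor-derived CD45.2 LSKs were then sorted. There were 3 control, 2 NHD13 and 4 NHD13/MSI2 libraries, all labelled with an age of 4 months. In the study's text this span is the time after transplantation. NHD13 is a NUP98-HOXD13 fusion gene under the Vav promoter, which is active throughout the blood system and is therefore not limited to stem cells. NHD13/MSI2 donors carried that fusion together with KH2-Col1A1-tet-on-MSI2/ROSA26-rTTA, in which a doxycycline-dependent activator drives MSI2 from a tet-on cassette. The labels number the libraries but do not say whether they came from separate mice, so the p-values measure the spread between these libraries.

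Gata factors are zinc finger proteins that bind short DNA motifs with the core GATA. Gata2 is active in stem and early progenitor cells, Gata1 takes over along the erythroid, megakaryocytic, mast cell and eosinophil paths, and Gata3 is best known from T cells although stem cells also transcribe it. Zfpm1, also called FOG1, binds Gata1 and is needed for red cell and platelet formation. Gata1 and its partners drive genes such as Klf1, Gfi1b and Epor, and later the genes of haem, the red cell membrane and the globins.

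Totals per library ran from 19242153 to 23013493 counts. At that depth 3 counts, taken as the detection floor of a library, correspond to 0.12 to 0.195 CPM, the count scaled to a common library size after TMM normalization, and these floors cover counting error only. Both genes that define the sort were present in each library, Kit at 908 to 2254 CPM and Ly6a, the gene of Sca1, at 48.3 to 375 CPM, but 4 of 7 LSK markers fell in NHD13/MSI2 over control, among them Procr (log2 fold change -1.81, adjusted p = 0.000875) and Slamf1 (-5.06, adjusted p = 0.00559, up to 0.0234 without single libraries of both groups). In that comparison 6.55% of all tested genes fell. Of the markers of mature cells, Itgam, a myeloid gene whose product is not in the lineage stain that the study describes, was at 41.2 to 50.2 CPM in control and 352 to 477 CPM in NHD13/MSI2 libraries. The B cell gene Cd79a was at 0.285 to 3.11 CPM in control, 37.0 and 0.593 CPM in NHD13 and 125 to 261 CPM in NHD13/MSI2. The part of these shifts in the results below was not tested. The mouse gene Msi2 had a level of 122 ± 79.5 CPM (SD, n = 4) in libraries labelled NHD13/MSI2, 125 ± 19.9 CPM (SD, n = 2) in NHD13 and 268 ± 46.4 CPM (SD, n = 3) in control, without a rise (log2 fold change over NHD13 -0.03, adjusted p = 0.983). Whether reads of the transgene would be counted under the mouse gene is not known, so this value does not check the label, and each direction below takes the label of these libraries as given. Hoxd13 was at 0 counts in the 3 control libraries and at 13 to 25 counts in the other 6. Xist, the RNA of the inactive X chromosome, reached 888 CPM in control replicate 1 and 866 CPM in replicate 3 but no more than 2.33 CPM in the other 7 libraries, so its presence and the control group cannot be fully told apart. NHD13/MSI2 replicate 4 stood apart from the rest of its group, with a TMM factor of 0.785 against 0.969 to 0.974. MPP and HSC appear in the names of 2 control libraries (replicates 2 and 3), whereas replicate 1 is named bulk. All 3 are labelled LSK, but whether they hold the same population cannot be told from the labels, and this touches each comparison with control.

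To show where Gata proteins could bind near these genes, the 250 bases before each RefSeq transcription start (GRCm38.p6) were searched on both strands for the hexamer AGATAA and its variant AGATAG, and likewise for TGATAA with its variant TGATAG. The promoter table held 9 of the 10 members, all but Car1. A hexamer was found in 4 of these 9 members. Counted by promoter this is 4 of 11, beside 26.6% of 32817 mouse promoters. The 4 windows are shown because they carry the motif, each read 5′ to 3′ on the strand of its gene, with the hexamer or its reverse complement in capitals. Bases that lie inside the GENCODE M21 gene are left out, which shortens the windows of Klf1 to 196 and of Ermap to 234 bases.
Epor (chr9:21963577-21963826, minus strand): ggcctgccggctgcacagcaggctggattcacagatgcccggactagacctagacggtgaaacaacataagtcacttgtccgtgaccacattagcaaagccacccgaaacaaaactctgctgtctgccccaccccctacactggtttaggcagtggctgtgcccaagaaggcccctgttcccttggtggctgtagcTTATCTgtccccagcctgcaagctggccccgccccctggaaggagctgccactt
Ermap (chr4:119190012-119190245, minus strand): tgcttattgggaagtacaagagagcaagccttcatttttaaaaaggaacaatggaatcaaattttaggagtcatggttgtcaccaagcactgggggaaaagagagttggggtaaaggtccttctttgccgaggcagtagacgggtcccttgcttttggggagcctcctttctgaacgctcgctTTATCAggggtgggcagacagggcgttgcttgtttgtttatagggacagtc
Gfi1b (chr2:28621983-28622232, minus strand): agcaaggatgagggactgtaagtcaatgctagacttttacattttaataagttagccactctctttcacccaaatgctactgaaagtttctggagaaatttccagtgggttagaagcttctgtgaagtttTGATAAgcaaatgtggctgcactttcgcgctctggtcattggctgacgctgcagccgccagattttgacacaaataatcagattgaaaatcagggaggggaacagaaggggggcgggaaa
Klf1 (chr8:84901732-84901927, plus strand): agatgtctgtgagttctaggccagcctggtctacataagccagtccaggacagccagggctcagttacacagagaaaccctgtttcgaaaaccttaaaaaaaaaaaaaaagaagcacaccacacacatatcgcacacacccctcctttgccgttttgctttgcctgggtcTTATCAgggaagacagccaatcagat
The capitals begin 54 bases before the start of Epor, 67 before Ermap, 120 before Gfi1b and 80 before Klf1. A second search, for the CACCC-like pattern CCNCNCCC to which Klf factors bind, matched 7 of the 9 members. Counted by promoter this is 9 of 11, beside 45.9% of all promoters. These matches describe the letters in the windows and do not show binding.

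All 3 comparisons were made with edgeR's quasi-likelihood test over 13355 genes, with p-values adjusted by Benjamini-Hochberg and a threshold of 0.01. Compared with control, NHD13/MSI2 LSKs held less Gata1, Gata3, Zfpm1 and Car1 and more Tfrc, the transferrin receptor. Thus 4 of the 10 members fell, where 6.55% of all tested genes did, and 1 rose, where 4.49% of all genes did. The median log2 fold change of the 10 members was -3.16, beside -0.01 for all genes tested. Since the members were chosen with earlier results of these data known, these shares and medians describe them and do not test them as a set. Klf1, Gfi1b, Epor and Ermap also had negative values but did not pass, and Gata2 was close to its control level. With control replicate 2 as the only control, which leaves out both libraries that held Xist and assumes that this lone library varies like the other groups, these 5 genes missed the threshold (adjusted p = 0.0635 to 0.304). They also missed it without control replicate 1 (adjusted p = 0.0103 to 0.0441), while Gata3 and Tfrc passed without replicate 2 and Gata3 without replicate 3. Lower counts in a bulk sample can mean fewer cells of a type or less RNA per cell, and the 2 cannot be told apart here.

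**Figure D1:**
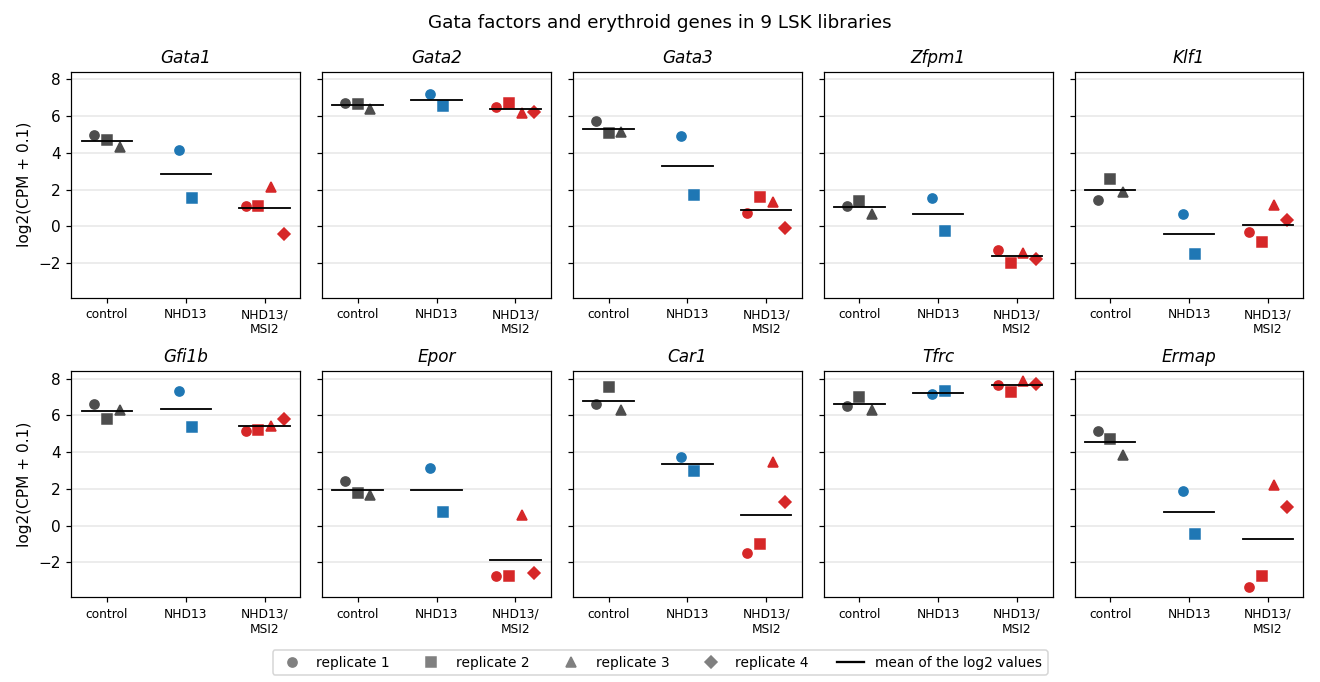
Level of each of the 10 members in each library as log2(CPM + 0.1), with points for replicates and a black line for the mean of the log2 values of a group. Gata2 stays in a narrow band in the 9 libraries, and Gata3 and Zfpm1 are lowest in the 4 NHD13/MSI2 libraries. Gata1 is highest and Tfrc lowest in the 3 control libraries, and NHD13 replicate 1 lies above replicate 2 in 9 of 10 panels.

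Gata2 (chromosome 6, 88193891 to 88207032, plus strand of GRCm38, GENCODE M21) was the Gata factor with the least spread. Its level was 106, 101 and 84.1 CPM in control replicates 1 to 3, 146 and 93.6 CPM in NHD13 and 91.6, 104, 71.7 and 73.5 CPM in NHD13/MSI2. The 3 groups overlapped. NHD13/MSI2 over control gave a log2 value of -0.19 (standard error 0.20, adjusted p = 0.572), and NHD13/MSI2 over NHD13 gave -0.49 (standard error 0.22, adjusted p = 0.239).

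Gata1 (chromosome X, 7959260 to 7978071, minus strand), the master regulator of red cell formation, was at 31.6, 26.0 and 19.95 CPM in the control libraries. In NHD13 it was at 17.6 and 2.82 CPM, and in NHD13/MSI2 at 2.07, 2.09, 4.34 and 0.649 CPM. Each NHD13/MSI2 and each NHD13 library was below each control library. NHD13 replicate 2 fell within the NHD13/MSI2 range, while replicate 1 was just below the lowest control library. The mean of the control libraries was 11.3 times that of NHD13/MSI2, and the log2 fold change was -3.48 (standard error 0.67, adjusted p = 0.00594). Control replicate 2, which lacked Xist, lay between the other control libraries in this X-linked gene. It is a single library, and the part of the Xist difference in the Gata1 values was not tested. The call was lost without control replicate 1, 2 or 3 or without NHD13/MSI2 replicate 1 or 2, with an adjusted p between 0.0162 and 0.024.

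Gata3 (chromosome 2, 9857078 to 9890034, minus strand) had the lowest p of the 10 members. Its level was 52.8, 33.7 and 35.4 CPM in control, 30.2 and 3.11 CPM in NHD13 and 1.55, 2.94, 2.40 and 0.844 CPM in NHD13/MSI2. The NHD13/MSI2 libraries lay below all 5 others, and the 2 NHD13 libraries were far apart. Against control the log2 fold change was -4.38 (standard error 0.69, adjusted p = 0.00229), a 21-fold difference of the mean CPM. It kept its call when any library but control replicate 1 was left out, without which the adjusted p was 0.0103. Gata3 was also the member called in the joint test of the 3 groups (adjusted p = 0.00627), in which 8.9% of all tested genes were called. Against NHD13 the log2 fold change was -3.09 (standard error 0.71, adjusted p = 0.0281), and the adjusted p was 0.00246 without NHD13 replicate 2 and 0.000492 by DESeq2. No other alternative at the 0.01 threshold called Gata3 over NHD13, including the fits without NHD13 replicate 1 and of the compared groups alone. NHD13 replicate 2 was the NHD13 library nearest to the NHD13/MSI2 levels. Exons of Gata3 share 77 bases with 9230102O04Rik on the same strand, and 155 bases with Gm13256 on the opposite strand, of 3978 exon bases in all. The strand setting of the counting is not known, so reads of these bases cannot be assigned with certainty. The summed level of 12 T cell markers was 44.5 to 53.4 CPM in control, 207 and 421 CPM in NHD13 and 73.9 to 129 CPM in NHD13/MSI2. Of these sums, Lck alone gave 36.1 to 44.1 CPM in control, 192 and 193 CPM in NHD13 and 48.4 to 83.8 CPM in NHD13/MSI2. Cd3d, Cd3e and Cd3g did not exceed 0.698 CPM in any library. The part of T cells in the Gata3 values was not tested.

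Per kilobase of exon, which allows a comparison between genes, the make-up of the Gata messages differed between groups. Gata2 supplied 42.9% to 49.3% of the summed Gata1, Gata2 and Gata3 level in the control libraries, 64.7% and 90.0% in NHD13, and 84.8% to 96.6% in NHD13/MSI2. Gata2 was 1.52 to 1.9 times as abundant as Gata1 per kilobase in control, 3.76 and 15 times in NHD13 and 7.45 to 51.2 times in NHD13/MSI2. The smallest ratio of the last group was that of replicate 3 and the largest that of replicate 4. These shares follow from the Gata1 and Gata3 levels above and were not tested on their own.

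**Figure D2:**
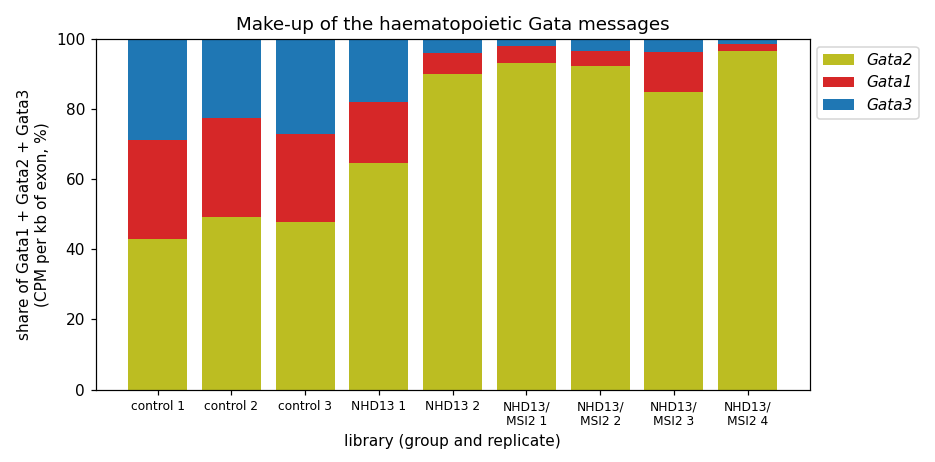
Share of Gata2, Gata1 and Gata3 in their summed level (CPM per kilobase of exon, %) in each library. Gata2 makes up less than 50% in each control library and at least 84.8% in each NHD13/MSI2 library.

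Zfpm1 (chromosome 8, 122282141 to 122337251, plus strand) was the least abundant member per kilobase in control (0.575 ± 0.148 CPM per kilobase, SD, n = 3). It was at 2.04, 2.52 and 1.48 CPM in control, 2.85 and 0.741 CPM in NHD13 and 0.310, 0.150, 0.272 and 0.195 CPM in NHD13/MSI2. The NHD13/MSI2 libraries lay below the other 5 libraries and near the detection floor. Its log2 fold change over control was -3.08 (standard error 0.62, adjusted p = 0.00702). This call depended on the number of libraries, since the adjusted p was 0.0112 to 0.0304 without any single library of control or NHD13/MSI2. Over NHD13 it was -2.92 (standard error 0.66, adjusted p = 0.0257), with an adjusted p of 0.00311 by DESeq2. No other alternative at the 0.01 threshold called Zfpm1 over NHD13. In the table as deposited the name Zfpm1 stands beside the counts of another gene, so these values rest on the corrected position of the name.

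Zfpm2 (FOG2, chromosome 15, 40655035 to 41104592), which binds Gata4 in the heart and is the paralogue of Zfpm1, went the other way. Its control libraries held 0, 1 and 0 counts. NHD13 libraries were at 46.7 and 70.2 CPM and NHD13/MSI2 libraries at 63.6, 63.9, 58.2 and 96.6 CPM. Hence Zfpm2 was at least 456-fold higher in NHD13 (adjusted p = 1.41e-05) and at least 550-fold higher in NHD13/MSI2 (adjusted p = 4.56e-06) than in control, taking 3 counts per library as the floor, and both calls held when any library was left out. Between NHD13/MSI2 and NHD13 the log2 fold change was 0.27 (standard error 0.29, adjusted p = 0.654). Gata4 and Gata5 were at 0 counts in the 9 libraries and Gata6 reached 0.92 CPM in NHD13 replicate 1 but stayed below the floor in the other 8 libraries. The name Zfpm2 also rests on the corrected position.

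Of the 15 transcription factors listed as acting with or against the Gata factors, 2 passed in NHD13/MSI2 over control, both lower. In that comparison 6.55% of all tested genes fell and 4.49% rose. Over NHD13 2 also passed, both lower, where 2.58% of all tested genes fell and 0.584% rose. In each comparison the genes were Tal1 and Sox6. Tal1, which binds DNA beside Gata1 in a complex with Lmo2 and Ldb1, was at 16.3, 23.1 and 19.95 CPM in control, 13.6 and 7.81 CPM in NHD13 and 1.71, 0.997, 1.72 and 0.519 CPM in NHD13/MSI2. Its log2 fold change was -3.98 over control (standard error 0.41, adjusted p = 0.000277) and -3.09 over NHD13 (standard error 0.43, adjusted p = 0.00367), and the latter reached an adjusted p of 0.0263 without NHD13 replicate 1 and also missed the threshold without any one control library or NHD13/MSI2 replicate 2. Sox6, which represses embryonic globin genes and aids red cell maturation, was at 113, 61.0 and 52.5 CPM in control, 110 and 38.7 CPM in NHD13 and 2.43, 1.95, 1.81 and 0.519 CPM in NHD13/MSI2. It fell by 5.46 on the log2 scale against control (adjusted p = 0.000213) and the log2 fold change against NHD13 was -5.44 (adjusted p = 0.00107), and no single library decided either call. With only the compared groups in the fit, which leaves out the control libraries, neither Sox6 nor Tal1 passed over NHD13. The partners Lmo2 (log2 fold change -0.70, adjusted p = 0.0223) and Ldb1 (0.16, adjusted p = 0.595) did not pass over control, nor did Spi1, the myeloid factor that opposes Gata1 (1.52, adjusted p = 0.0622), whose level was 62.8 to 78.7 CPM in replicates 1 to 3 of NHD13/MSI2 but 13.1 CPM in replicate 4. Without replicate 4 the list gave 3 lower and 4 higher genes against control. In that fit 8.25% of all tested genes fell, and more genes passed in all than with all 9 libraries. The median log2 fold change of the 15 genes was 0.16 over control.

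Gfi1b (chromosome 2, 28609450 to 28621982, minus strand), a repressor needed for red cells and platelets and a known Gata1 target, did not pass in any comparison. It was at 97.4, 56.3 and 77.4 CPM in control, 159 and 41.8 CPM in NHD13 and 35.3, 37.0, 42.9 and 56.7 CPM in NHD13/MSI2. The highest NHD13/MSI2 library overlapped the lowest control library. The log2 fold change over control was -0.84 (standard error 0.39, adjusted p = 0.171) and over NHD13 -1.22 (standard error 0.43, adjusted p = 0.13).

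Klf1 (chromosome 8, 84901928 to 84905291, plus strand), the activator of adult beta-globin, was low throughout. Control libraries were at 2.66, 5.98 and 3.56 CPM, NHD13 libraries at 1.52 and 0.247 CPM and NHD13/MSI2 libraries at 0.724, 0.449, 2.13 and 1.17 CPM. The control libraries were above the other 6. The log2 fold change was -2.19 for NHD13 (standard error 0.91, adjusted p = 0.325) and -1.85 for NHD13/MSI2 over control (standard error 0.70, adjusted p = 0.0963).

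Epor (chromosome 9, 21958897 to 21963506, minus strand), the erythropoietin receptor on which early red cells depend, was at 5.23, 3.27 and 3.12 CPM in control and 8.69 and 1.58 CPM in NHD13. In NHD13/MSI2 it was at 0.0517, 0.0499, 1.40 and 0.0649 CPM, so replicates 1, 2 and 4 were below the detection floor. Each NHD13/MSI2 library was below each library of the other groups. The log2 fold change was -3.23 over control (standard error 1.09, adjusted p = 0.0659) and -3.64 over NHD13 (standard error 1.16, adjusted p = 0.094). Without replicate 3 these values were -5.99 (adjusted p = 0.00283) and -6.40 (adjusted p = 0.00695), so that a single library decided both calls.

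Of the 10 genes listed for signalling from the receptor, 1 passed over control, where 4.49% of all tested genes rose and 6.55% fell. Lyn, a kinase that acts below Epor and other receptors, was higher (log2 fold change 0.92, standard error 0.12, adjusted p = 0.000835), with 108 to 121 CPM in control, 141 and 155 CPM in NHD13 and 204 to 225 CPM in NHD13/MSI2. Its call held when any library was left out. Jak2 (0.30, adjusted p = 0.461), Stat5a (0.09, adjusted p = 0.837) and the feedback inhibitor Cish (-0.34, adjusted p = 0.551) did not pass, and the median of the list was 0.15.

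Tfrc (chromosome 16, 32608920 to 32632794, plus strand) takes up transferrin-bound iron and is made by dividing cells of many kinds as well as by erythroblasts. Its level was 89.3, 130 and 76.7 CPM in control, 140 and 160 CPM in NHD13 and 203, 154, 230 and 211 CPM in NHD13/MSI2. The control libraries lay below the 6 others. Tfrc rose in NHD13/MSI2 over control, with a value of 1.02 on the log2 scale (standard error 0.21, adjusted p = 0.00866). The adjusted p was 0.0114 to 0.0441 without control replicate 1 or 3, NHD13 replicate 1 or 2 or NHD13/MSI2 replicate 1 or 3. This name, too, rests on the corrected position. Of the 10 iron genes, Ftl1, the ferritin light chain, rose (log2 fold change 1.14, adjusted p = 0.00301), and Steap3, the endosomal reductase that works beside the transferrin receptor, fell (-1.25, adjusted p = 0.00095). Over control, 4.49% of all tested genes rose and 6.55% fell. The Ftl1 call was lost without control replicate 1, 2 or 3, at an adjusted p of up to 0.0195. Tfr2, a second transferrin receptor that associates with Epor, had a log2 fold change of -0.65 (adjusted p = 0.0122).

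Among the 14 measured genes of haem synthesis and transport, 1 passed over control and was higher, beside 4.49% of all genes. It was Alas1, the first enzyme of haem synthesis in non-erythroid cells, at 90.1 to 107 CPM in control, 185 and 234 CPM in NHD13 and 285 to 477 CPM in NHD13/MSI2 (log2 fold change 1.95, standard error 0.21, adjusted p = 0.000287). Its erythroid counterpart Alas2 was at 0.45 to 1.52 CPM in control and 0.0499 to 0.362 CPM in NHD13/MSI2 (log2 fold change -2.30, standard error 0.76, adjusted p = 0.0605). The median of the 14 genes was -0.10.

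Car1 (chromosome 3, 14766216 to 14808368, minus strand), a carbonic anhydrase of red cells and their early progenitors, was the most abundant member per kilobase in control (95.8 ± 45.9 CPM per kilobase, SD, n = 3) and the fourth in both other groups. It was at 96.3, 185 and 77.6 CPM in control, 13.3 and 7.66 CPM in NHD13 and 0.259, 0.399, 10.99 and 2.34 CPM in NHD13/MSI2. Both NHD13 libraries were below the controls, and NHD13/MSI2 replicate 3 lay between them. NHD13/MSI2 over control gave a log2 value of -5.07 (standard error 1.02, adjusted p = 0.00721), a 34.2-fold difference of the means. The adjusted p was 0.0104 to 0.0294 without any single library other than NHD13/MSI2 replicate 3. NHD13 over control gave -3.51 (standard error 1.26, adjusted p = 0.232).

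The 3 other carbonic anhydrases of the same family that were listed all fell over control, where 6.55% of all tested genes fell. Car2, which is shared by red cells and osteoclasts, was at 2632, 2393 and 2296 CPM in control, 2202 and 340 CPM in NHD13 and 10.2, 16.2, 48.7 and 59.6 CPM in NHD13/MSI2. It fell by 6.18 on the log2 scale over control (adjusted p = 0.000845), and over NHD13 the log2 fold change was -5.24 (adjusted p = 0.00523). The first call held when any library was left out, and the second was lost without any single library other than NHD13 replicate 2 or NHD13/MSI2 replicate 4, with an adjusted p of up to 0.0411. Car3 (-2.99, adjusted p = 0.00298) and Car13 (-2.47, adjusted p = 0.00592) were lower over control. Car3 lost its call without control replicate 1 or 2 or NHD13/MSI2 replicate 2 (adjusted p up to 0.0154), and Car13 without any control library or NHD13/MSI2 replicate 1 or 2 (adjusted p up to 0.0261).

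Ermap (chromosome 4, 119175457 to 119190011, minus strand) encodes an erythroid membrane protein that carries the Scianna blood group. It was at 35.3, 25.8 and 14.1 CPM in control, 3.59 and 0.642 CPM in NHD13 and 0, 0.0499, 4.53 and 1.95 CPM in NHD13/MSI2. The control libraries lay above the other 6, and the NHD13 and NHD13/MSI2 libraries overlapped. The log2 fold changes over control were -3.93 for NHD13/MSI2 (standard error 1.2, adjusted p = 0.0457) and -3.56 for NHD13 (standard error 1.56, adjusted p = 0.36).

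Genes of the red cell membrane and skeleton moved with Ermap in direction. Of 18 tested among 20 listed, 7 passed over control, all lower, where 6.55% of all tested genes fell. The median of the 18 log2 fold changes was -2.51, beside -0.01 for all genes tested. This list, too, was chosen with earlier results known, so these values describe it without a test. Ank1, Epb4.2 and Kel were among the largest changes that passed. Ank1, which ties the membrane to spectrin, was at least 14.1-fold lower (adjusted p = 0.00271), Epb4.2, which binds ankyrin, at least 14.9-fold lower (adjusted p = 0.000875), and the blood group protein Kel had a log2 fold change of -5.54 (adjusted p = 0.00655). Leaving out a library never cost Epb4.2 its call, while Ank1 lost it without control replicate 1 or 2 or NHD13/MSI2 replicate 3 (adjusted p up to 0.0131) and Kel without any control library or NHD13/MSI2 replicate 1 or 2 (adjusted p up to 0.0246). Further calls over control were Aqp1, Xk and Icam4, each lost without control replicate 1 or 2 (adjusted p up to 0.0229). Aqp1 also lost its call without control replicate 3 or NHD13/MSI2 replicate 2 or 3, and Xk without control replicate 3 or NHD13/MSI2 replicate 1. Icam4 (-2.33, adjusted p = 0.00644) and Xk (-2.42, adjusted p = 0.00704) also fell over NHD13, calls that were lost without NHD13 replicate 1 (adjusted p = 0.0507 and 0.0782) and without most other libraries. Over NHD13, 2.58% of all tested genes fell. Without control replicate 1 or without control replicate 2 the list gave 2 lower genes over control. In these fits 3.06% and 3.42% of all tested genes fell, beside 6.55% with all 9 libraries.

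**Figure D3:**
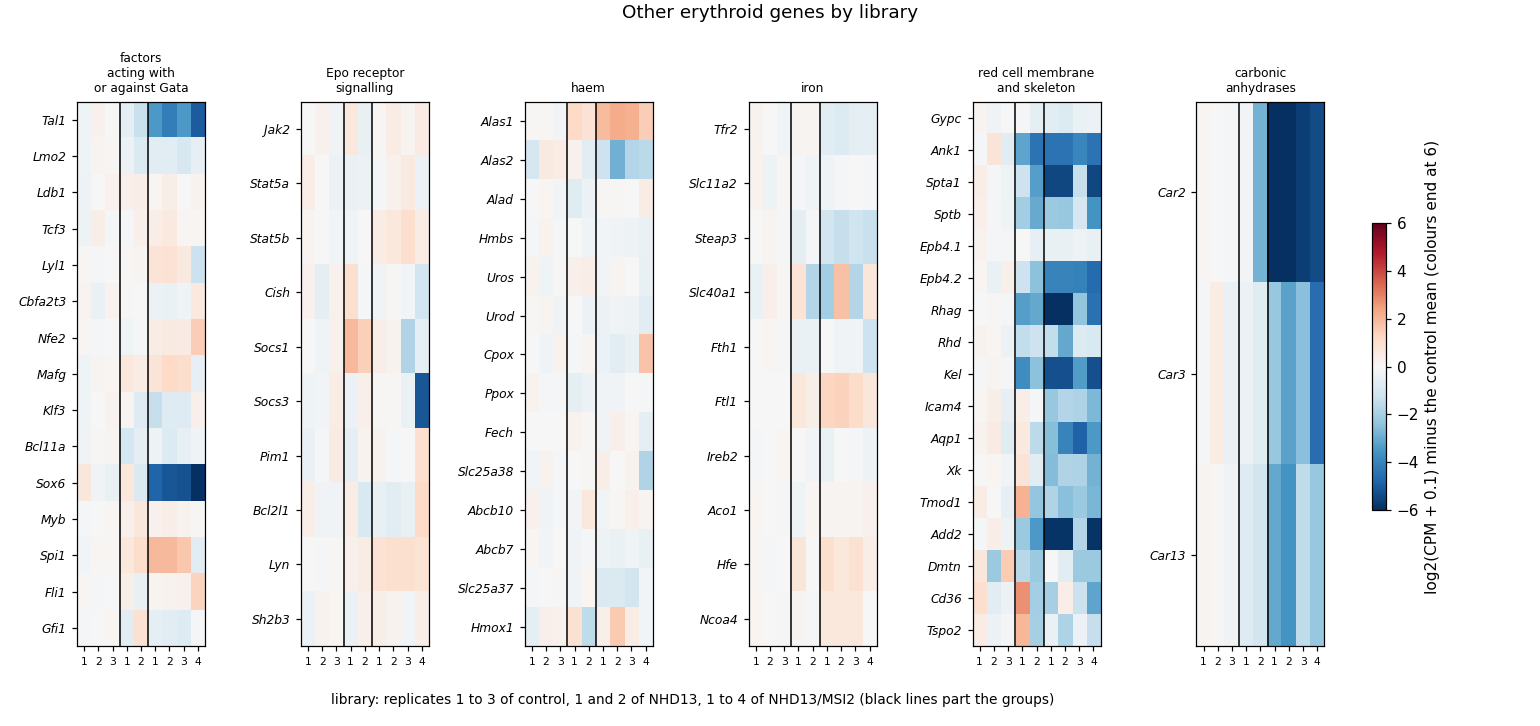
Difference of log2(CPM + 0.1) from the control mean in each library (columns) for tested genes of 6 lists (rows), blue for lower and red for higher, with colours ending at 6. Blue cells gather in the membrane list, the carbonic anhydrases, Tal1 and Sox6 of the NHD13/MSI2 libraries, while the haem, iron and receptor signalling lists stay paler, with Alas1 red and Alas2 blue in NHD13/MSI2.

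Globin messages were close to absent in the 3 groups. Hba-a1, Hba-a2, Hba-x, Hbb-b2, Hbb-bs and Hbb-bt were at 0 counts in the 9 libraries, Hbb-b1 and Hbb-bh1 had a single count each, and the embryonic Hbb-y reached 1.72 CPM in NHD13/MSI2 replicate 3 and 0.84 CPM in NHD13 replicate 2. Adult globin genes are near-identical copies, and reads that match several copies may have been left uncounted, which was not tested.

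For NHD13/MSI2 over NHD13, none of the 10 members passed by edgeR. In this comparison 5 members were lower at an unadjusted p under 0.05, as were 13.9% of all genes, and none was higher, as were 7.84% of all genes. DESeq2 called 2 lower, Gata3 and Zfpm1, and 6.66% of all genes. The median of the 10 members was -1.39, beside -0.03 for all genes. Gata1 (log2 fold change -2.14, standard error 0.71, adjusted p = 0.105) followed Gata3, Zfpm1 and Epor in the size of p, while Klf1 (0.34, standard error 0.82, adjusted p = 0.867), Tfrc (0.41, standard error 0.24, adjusted p = 0.371), Car1 (-1.56, standard error 1.04, adjusted p = 0.439) and Ermap (-0.37, standard error 1.32, adjusted p = 0.914) did not pass. NHD13 replicate 1 was above replicate 2 in 9 of the 10 members, with Tfrc the exception. It also had more of the megakaryocyte markers (summed level of 12 genes 1412 against 283 CPM) and of the T cell markers (421 against 207 CPM).

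For NHD13 over control, again no member passed by edgeR or DESeq2, where 0.21% of all tested genes fell and 0.824% rose. At an unadjusted p under 0.05, 3 members were lower (Klf1, Car1 and Ermap) beside 5.83% of all genes, and 1 was higher (Tfrc) beside 7.66% of all genes. The median of the 10 members was -0.72, beside 0.02 for all genes. Gata1 (log2 fold change -1.34, standard error 0.79, adjusted p = 0.561) and Gata3 (-1.29, standard error 0.78, adjusted p = 0.578) were negative in this comparison too, and Zfpm1 (-0.16, standard error 0.68, adjusted p = 0.981) and Epor (0.41, standard error 1.19, adjusted p = 0.967) were near 0 with wide errors. Both comparisons with NHD13/MSI2 share its libraries and both comparisons with control share theirs, so the 3 sets of values are not independent.

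**Figure D4:**
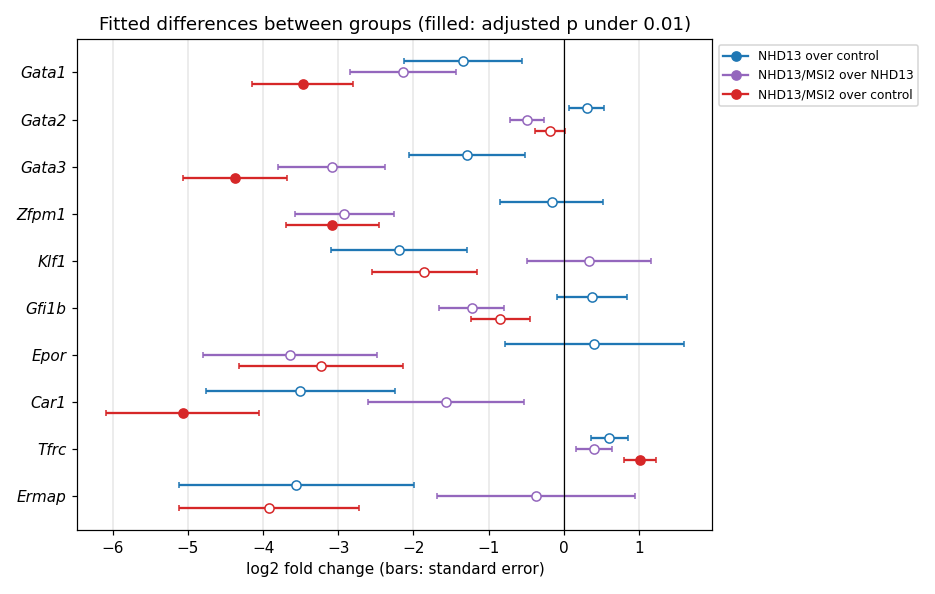
Fitted log2 fold change of each member with its standard error for NHD13 over control, NHD13/MSI2 over NHD13 and NHD13/MSI2 over control, filled where the adjusted p is under 0.01. The filled points are Gata1, Gata3, Zfpm1 and Car1 on the left and Tfrc on the right, all for NHD13/MSI2 over control.

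Markers of other lineages differed between the groups as well. The summed level of 12 megakaryocyte markers was 527 to 894 CPM in control, 283 and 1412 CPM in NHD13 and 45.04 to 77.2 CPM in NHD13/MSI2, with Gp6 at 0 in the 9 libraries. Of the 10 tested, 3 fell over control, where 6.55% of all tested genes did, and 3 over NHD13, where 2.58% did. The 11 mast cell and basophil markers, whose cells also use Gata1 and Gata2, summed to 28.4 to 76.2 CPM in control, 13.7 and 23.4 CPM in NHD13 and 6.3 to 13.98 CPM in NHD13/MSI2. Of the 6 tested, 2 fell over control, among them Fcer1a, at 1.4 to 3.94 CPM in control and 0 in both NHD13 groups, a call that was lost without any single control library (adjusted p up to 0.0251). Ms4a2 was at 3.71 CPM in NHD13 replicate 2 and 0 in replicate 1 and in NHD13/MSI2, while Mcpt8 and Hdc had counts in each library. The 9 granulocyte and monocyte progenitor markers summed to 1775 to 2506 CPM in control, 4047 and 4670 CPM in NHD13 and 9935 to 16330 CPM in NHD13/MSI2, most of it from Mpo. In NHD13/MSI2 5 of the 9 rose over control, where 4.49% of all tested genes did. How far the make-up of the sorted cells contributes to the values of the 10 members was not tested. NHD13/MSI2 replicate 3 held the highest level of its group in 6 of the 10 members and in 9 of 18 membrane genes with counts.

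The genes whose log2 CPM followed that of Gata1 most closely over the 9 libraries, among 10971 genes with a mean of at least 50 counts, were Serpinb9 (Pearson's r 0.988), Ubxn8 (0.981), Pik3r1 (0.981), Acss2 (0.978) and Dio2 (0.978). Among the members Gata3 (0.976), Zfpm1 (0.907), Epor (0.88) and Car1 (0.843) came next, followed by Ermap (0.768), Klf1 (0.715), Gfi1b (0.662) and Gata2 (0.499), and Tfrc ran the opposite way (-0.779). The 9 libraries include the differences between the 3 groups, which these genes share, and the values describe them without a test.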

How the data were processed

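RNA-seq of LSKs gave 3 control, 2 NHD13 and 4 NHD13/MSI2 libraries. The table that the authors deposited gives raw counts for each symbol in each of the 9 libraries, with no normalization or pooling. The submitters' processing notes name STAR, HTSeq, DESeq and build mm9, without versions or a strand setting, so whether reads of antisense genes were kept apart is not known. The table has 24073 rows, 2 of them blank. Names after the 11 date-like March rows stood 2 rows too high, so a shift down of 2 rows was applied to 11942 names, and 13 rows (0.0253% to 0.0323% of a library) were left unnamed and unused. After the move Uty followed Eif2s3y (r = 0.973 over the 9 libraries) and the median mean count of 77 ribosomal genes was highest (7116, against 4573 unmoved).

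Counts were filtered by filterByExpr, scaled by TMM and fitted with all 9 libraries by edgeR 4.0.16 in R 4.3.3 (13355 genes, threshold adjusted p of 0.01, prior degrees of freedom 3.38), and the method was tested on simulated counts. A group with at most 3 counts in each library gave a fold bound against that floor. Alternatives were DESeq2 1.42.0, RLE factors, other filters, an adjusted p of 0.05, a replicate block, a robust fit, fits of the compared groups alone, names as deposited, CPM without TMM, and each library left out. Same-numbered libraries of different groups correlated at -0.0716 to 0.194 in their deviations, and differently numbered ones at -0.194 to 0.153. Deviations of the 2 NHD13 libraries from their own mean mirror each other, so this check cannot decide whether libraries were paired. The numbers were taken as names only. A fit with control replicate 2 as the only control was added after the data had been seen.

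Named were the 10 members, Msi2, Hoxd13, of each list up to 4 called genes with the largest change in each comparison, and the 5 genes most like Gata1. Other genes were named after their values were seen: the list genes given with values that did not pass, Aqp1, the marker genes, Xist, 9230102O04Rik and Gm13256. The members and lists were chosen with earlier results of these data known. Flvcr1, Ahsp and Ly6g had no row under these symbols, and some list genes are not reported here. Positions and exon lengths are from GENCODE M21 (GRCm38) and promoters from RefSeq (GRCm38.p6); mm9 was not used here.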

Additional observations from a re-analysis of the deposited data

Results flagged for a closer look

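Epor in NHD13/MSI2 replicate 3 (1.4 CPM) lay far above replicates 1, 2 and 4, which were at 0.0517, 0.0499 and 0.0649 CPM, and its gap to the nearest of them was 0.989 of the range of the group. The comparison was made for groups of 4 libraries, in which about 1 in 20 such groups stands out by chance.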

How the results depend on the processing

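At an adjusted p of 0.05 the number of genes called was 1177 for NHD13/MSI2 over NHD13 (423 at 0.01), 2745 for NHD13/MSI2 over control (1474), 386 for NHD13 over control (138) and 2472 for the joint test (1189). DESeq2 gave 1286, 2589, 594 and 2646, and called fewer of them lower for NHD13/MSI2 over NHD13 (69.1% against 81.6%) and more for NHD13 over control (37.4% against 20.3%). With only the compared groups in the fit, the counts were 30 for NHD13/MSI2 over NHD13 and 83 for NHD13 over control, and Car1 (adjusted p = 0.0105) and Tfrc (0.0104) missed the threshold over control. With control replicate 2 as the only control, an alternative chosen after seeing the data, the counts were 38, 95, 7 and 78. Leaving out single libraries gave 128 to 646, 647 to 2066, 38 to 251 and 440 to 1743 genes, the lowest without NHD13 replicate 1 in the first and without control replicate 3 in the rest, the highest without NHD13/MSI2 replicate 4. DESeq2, RLE factors, no filter and the robust fit called the 4 lower and 1 higher members of the report over control. A mean of at least 50 counts left 8 members in the test, of which 3 were lower and 1 higher. The cause of these shifts was not tested.

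The replicate numbers share no stated litter or day, and with the replicate block 203 genes passed for NHD13/MSI2 over NHD13. Over control Gata1 (adjusted p = 0.012), Zfpm1 (0.0268), Car1 (0.0169) and Tfrc (0.0245) missed the threshold under the block, Gata3 (0.00985) passed, and Klf1 over NHD13 turned to -0.0469.

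With names as deposited, the row called Zfpm1 had log2 fold changes of 0.929 over NHD13 and 0.468 over control, and that called Tfrc -0.0434 over NHD13, since these rows belong to other genes. Signs that changed when a library was left out belong to members that did not pass in that comparison. For NHD13/MSI2 over NHD13 the values ran from -0.395 to 2.18 for Klf1, -1.85 to 0.0657 for Gfi1b and -1.75 to 1.38 for Ermap. For NHD13 over control they ran from -0.0483 to 0.58 for Gata2, -1.43 to 0.491 for Zfpm1, -0.88 to 1.03 for Gfi1b and -1.29 to 1.15 for Epor. Most of these ends came from leaving out 1 of the 2 NHD13 libraries. CPM without TMM moved no level of a member by more than the spread between replicates. Below 0.12 to 0.195 CPM, where Epor and Ermap lay in some NHD13/MSI2 libraries, differences were not detectable at this depth.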
